A study of Mus musculus with 68 samples.

Results

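The inflammatory caspases examined here were Casp4, Casp1 and Casp12, which lie side by side on mouse chromosome 9. They were selected by name, on values already known from these same libraries: the control level, the level under tunicamycin (TM) and the change between them in each genotype. Of the 3 genes, 2 were listed in the tables, Casp4 (ENSMUSG00000033538) and Casp12 (ENSMUSG00000025887), out of 13378 genes listed in either set of strains. Casp1 (ENSMUSG00000025888) was listed in none of the 13 tables, so no value is given for it. Because the choice used these values, the levels and changes of Casp4 and Casp12 are given as a description. Counts of genotypes in which each was called are printed beside the share of all genes called, and no evidence is drawn from them.

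Messenger RNA was measured in primary mouse embryonic fibroblasts given 2 ug/ml TM for 4 h, or 0.1% DMSO as the control. TM is an antibiotic used to cause stress in the endoplasmic reticulum (ER), the compartment where secreted proteins receive their sugar chains and fold. The 8 inbred founders of the Collaborative Cross were 129S1Sv/ImJ (129), A/J (A), C57BL/6J (B6), CAST/EiJ (CAST), NOD/ShiLtJ (NOD), NZO/H1LtJ (NZO), PWK/PhJ (PWK) and WSB/EiJ (WSB), with 40 libraries. The 5 F1 crosses had a B6 mother and a father of the 129, CAST, NOD, NZO or WSB strain, written x129, xCAST, xNOD, xNZO and xWSB, with 28 libraries. Each group held 2 or 3 libraries. The fibroblasts of each genotype came from several female embryos of a single litter, mixed in culture, so the spread between libraries covers repeat wells of 1 pool and may be technical.

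Caspase-11, the product of Casp4, is the mouse sensor of cytosolic lipopolysaccharide in the non-canonical inflammasome, and it cleaves gasdermin D to open pores in the plasma membrane. Caspase-1, the product of Casp1, is the canonical inflammasome protease that matures interleukin-1β and interleukin-18. Caspase-12 sits at the ER membrane and has been studied as a caspase activated by ER stress. Resting cells usually hold little Casp4 transcript, which rises with Toll-like receptor, interferon and NF-κB signals, while 129 substrains are known for a passenger mutation that disables the Casp4 product.

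In the GENCODE vM21 annotation of GRCm38, Casp1 lay on the plus strand of chromosome 9 from 5298517 to 5307265, Casp4 from 5308828 to 5336783 and Casp12 from 5345430 to 5373032. The 250 bases before the RefSeq start of the 2 listed genes are printed below because Casp4 was far higher under TM in most genotypes while Casp12 differed less. They were taken from RefSeq on GRCm38.p6, plus strand, at chr9:5308599-5308848 for Casp4 and chr9:5345226-5345475 for Casp12. Both windows run past the GENCODE starts given above, so their last bases lie within the annotated genes. In Casp12 these bases hold the nearer copy of each motif marked. Capitals mark every match on either strand to 8 motifs.
Casp4: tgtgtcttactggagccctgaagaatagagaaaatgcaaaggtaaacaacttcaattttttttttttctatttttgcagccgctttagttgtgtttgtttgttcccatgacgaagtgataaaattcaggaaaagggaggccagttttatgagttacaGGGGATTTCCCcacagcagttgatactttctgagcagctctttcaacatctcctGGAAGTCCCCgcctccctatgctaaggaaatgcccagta
Casp12: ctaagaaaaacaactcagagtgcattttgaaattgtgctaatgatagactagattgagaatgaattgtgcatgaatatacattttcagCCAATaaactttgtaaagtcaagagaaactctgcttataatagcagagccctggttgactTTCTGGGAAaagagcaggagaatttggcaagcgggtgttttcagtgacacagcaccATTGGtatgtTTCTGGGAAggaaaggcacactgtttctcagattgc

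The capitals in the Casp4 window mark matches to the NF-κB (kappaB) consensus. The first stretch, GGGGATTTCCC, holds 3 overlapping matches and begins 93 bases before the start, and the second, GGAAGTCCCC, begins 39 bases before it. Counted from another RefSeq start of Casp4, the same stretches begin 104 and 50 bases before it. A kappaB match was found in 7.25% of 32851 promoter windows of the same length. The capitals in the Casp12 window mark 2 matches to the CCAAT box (CCAAT), 162 and 46 bases before the start, and 2 copies of the gamma-activated site pattern TTCNNNGAA, both reading TTCTGGGAA, 102 and 36 bases before it. CCAAT was present in 33.9% of all windows and TTCNNNGAA in 7.02%. Neither window held the ER stress response element (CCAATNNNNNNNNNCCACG, in 0.113% of windows), the XBP1 and ATF6 core (GACGTG, 5.20%), the CHOP and ATF4 composite site (TGATGNAA, 3.45%), the interferon-stimulated response core (GAAANNGAA, 7.13%) or the AP-1 site (TGANTCA, 6.75%). These matches describe letters in the reference window and are no measure of binding.

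The values are reads per gene scaled to library size, close to CPM, and are not divided by gene length. The 66 libraries whose reads could be recovered held between 6442976 and 29528457 reads on genes. A single read was thus worth about 0.1 units in most libraries, and Casp4 in control cells rested on 0 to 11 reads per founder library. Founders and crosses were scaled apart, so levels are compared only within each of them. Fibroblast markers were all listed, and their summed level was between 17130 and 55110 units in the founder libraries, against 3.92 to 71.5 for the 12 myeloid markers listed of 15. Single fibroblast markers were low in some of these libraries, down to 1.38 units for Thy1, 3.38 for Dcn and 4.8 for Pdgfra. The 4 epithelial markers listed of 5 summed to 23.8 to 132 units. Fewer cells of a type and less RNA per cell cannot be told apart in bulk libraries.

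Of the 68 libraries, 66 were most like a library of their own genotype, and 2 were not: A TM replicate 2 was closest to a 129 library and NZO TM replicate 3 to an A library. In 3 further libraries the summed myeloid markers were at least 2 times those of every other library of the group. These were WSB control replicate 2 (44.4 units against 4.56 in the other WSB control), xNOD control replicate 3 (28.2 against at most 11.4) and xNZO control replicate 3 (28.5 against at most 6.25). Casp4 and Casp12 results that moved with these 5 libraries are given without them as well.

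Casp4 was close to undetected in control cells of the founders. Its mean was higher under TM in every strain, but by little in WSB, where the libraries overlapped. In 129 the control libraries read 0.06 and 0.00 units, and the TM libraries 1.15, 1.13 and 1.19. That was 1 read in 2 control libraries against 43 reads in 3 TM libraries, a ratio of 34.6 with a 95% counting interval of 5.89 to 1399. In A the control libraries read 0.09, 0.64 and 0.34 units, and the TM libraries 5.34, 7.32 and 4.07. A thus reached the highest Casp4 level under TM of any founder, with a mean of 5.58 ± 1.64 units (SD, n = 3). Without A TM replicate 2, which read 7.32 units, the mean was 4.70 ± 0.89 (n = 2) and was still the highest.

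In B6 Casp4 went from 0.37 and 0.00 units to 1.51 and 1.88. In CAST it went from 0.41 and 0.41 units to 2.87 and 1.87. In NOD it went from 0.53 and 0.44 units to 2.40, 2.68 and 2.63. These 3 strains started from few reads (8, 13 and 18 over their control libraries), and in each of them the lowest TM library was above the highest control library. In NZO Casp4 went from 0.00 and 0.25 units to 3.28, 2.31 and 2.85. In PWK it went from 0.27, 0.26 and 0.24 units to 3.31, 3.32 and 4.77. Both strains also showed a complete separation of TM from control libraries.

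WSB was the exception. Its control libraries read 1.12 and 0.15 units and its TM libraries 0.60, 0.49 and 0.98, so the groups overlapped. The means were 0.63 units in control and 0.69 under TM, and each TM library was above the control library of 0.15 units. The WSB TM libraries lay below every other founder TM library for Casp4, as was the case for 1.45% of all 13197 founder genes. The 1.12 units were read in WSB control replicate 2, the library with 44.4 units of myeloid markers, where the endothelial markers (17.9 units) and epithelial markers (103 units) were also above the other WSB control (2.35 and 36.9 units). The part of other cells in that Casp4 value was not tested.

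**Figure D1:**
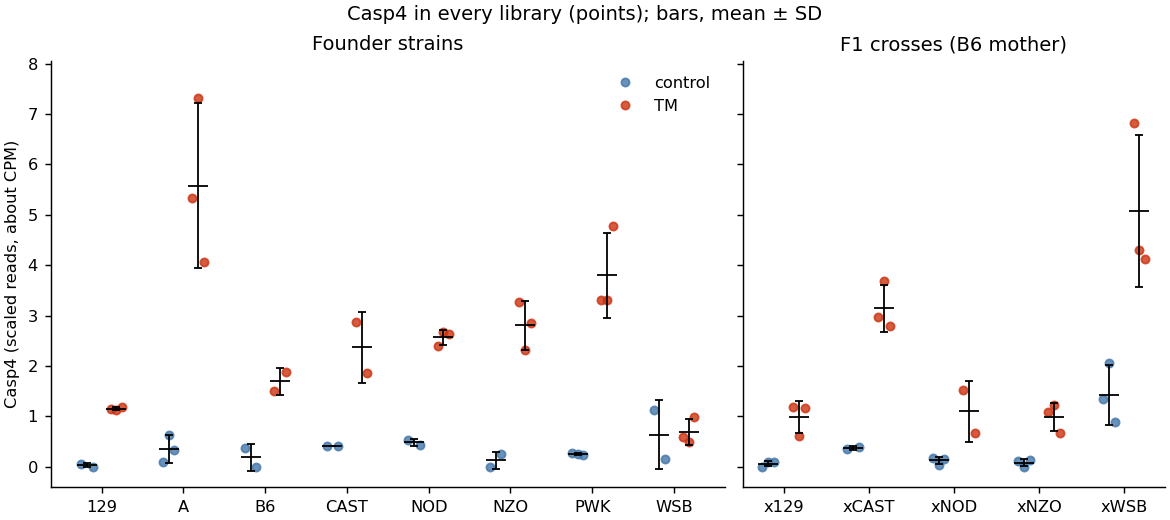
Casp4 in every library of the 8 founder strains (left) and 5 F1 crosses (right), in scaled reads (about CPM). Points are libraries (blue, control; red, TM) and black bars the mean ± SD; founder TM values run from 0.49 in WSB to 7.32 in A, and in xWSB the control values of 0.88 to 2.06 lie above those of the other crosses.

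The change in Casp4 was estimated on log2(value + 0.1) with limma, a scale that understates the change of genes near 0. It was 3.33 ± 0.45 (SE) in 129, 3.81 ± 0.51 in A, 3.05 ± 0.64 in B6, 2.24 ± 0.37 in CAST, 2.20 ± 0.28 in NOD, 3.94 ± 0.57 in NZO, 3.45 ± 0.29 in PWK and 0.48 ± 0.78 in WSB. These were among the largest increases in each fit: Casp4 ranked 9th of 12702 genes in 129, 10th in A, 17th in B6, 33rd in CAST, 36th in NOD, 9th in NZO and 12th in PWK, but 2038th of 12668 in WSB. Every TM library was above every control library in 7 of 8 strains, a pattern that 7% of genes showed in at least that many strains. Under the test used for all genes (limma, adjusted p under 0.01, minimum change 1.5 fold), Casp4 was called induced in 4 of 8 strains: B6, CAST, NOD and PWK. The share of genes called induced was 5.04% in B6, 2.54% in CAST, 1.45% in NOD and 6.36% in PWK, against 0.315% in 129, 0.346% in A, 0.32% in NZO and 2.85% in WSB. The strains 129, A and NZO, in which Casp4 was not called in spite of changes above 3 on the log2 scale, were thus those with the fewest calls of any gene. With the 5 libraries that stood apart left out, the count was 5 strains. With edgeR on recovered reads the count was 5 of the 7 strains in which Casp4 passed its filter. Only 1 strain, A, was added, and it had 14 reads over its control libraries and 188 over its TM libraries. Calls in the strains used to choose the gene carry no evidence of their own.

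The WSB change was 2.66 ± 0.61 (SE) lower on the log2 scale than the mean of the other 7 strains in a fit over all 40 founder libraries, and 2.56 ± 0.85 lower than in B6. The size of this difference turned on the control libraries of WSB. Without WSB control replicate 2 the Casp4 change within WSB was 1.63 and the difference from the other strains was -1.51 ± 0.67, while without WSB control replicate 3 (0.15 units, 1 read) the change was -0.67 and the difference -3.81 ± 0.67. With the 5 libraries that stood apart left out together, the difference was -1.48 ± 0.68. The difference from the other strains therefore kept its sign but not its size. The level under TM did not use the control libraries and was 1.78 ± 0.39 lower in WSB than the mean of the other 7 strains on the log2 scale.

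The order of the founders by Casp4 level differed between control and TM. In control cells the means ran from 0.63 units in WSB through 0.48 in NOD and 0.41 in CAST to 0.0287 in 129, and only the NOD and CAST libraries among neighbours in that order failed to overlap. The first place of WSB rested on control replicate 2: with the other WSB control alone (0.15 units) WSB was sixth, and NOD was first. Under TM the order was A (5.58), PWK (3.80), NZO (2.81), NOD (2.57), CAST (2.37), B6 (1.70), 129 (1.16) and WSB (0.69). In that order the libraries of A and PWK overlapped, as did those of NZO, NOD, CAST and B6 with their neighbours among these 4, whereas PWK and NZO, B6 and 129, and 129 and WSB did not overlap.

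Summed myeloid markers differed between founders, and their values are set beside Casp4 because myeloid cells express it. They ranged from 41.2 to 55.9 units in the A TM libraries, the strain with the highest Casp4 under TM, and from 3.92 to 6.41 in the WSB TM libraries, the strain with the lowest. PWK and NOD did not follow that order: PWK, second in Casp4 under TM, had 10.5 to 12.8 units, and NOD had 4.92 to 6.04 units with 2.40 to 2.68 units of Casp4. Within A the myeloid markers were lower under TM than in control cells (64.0 to 71.5 units), where Casp4 was at most 0.64 units. The contribution of these cells to the Casp4 level was not tested.

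**Figure D2:**
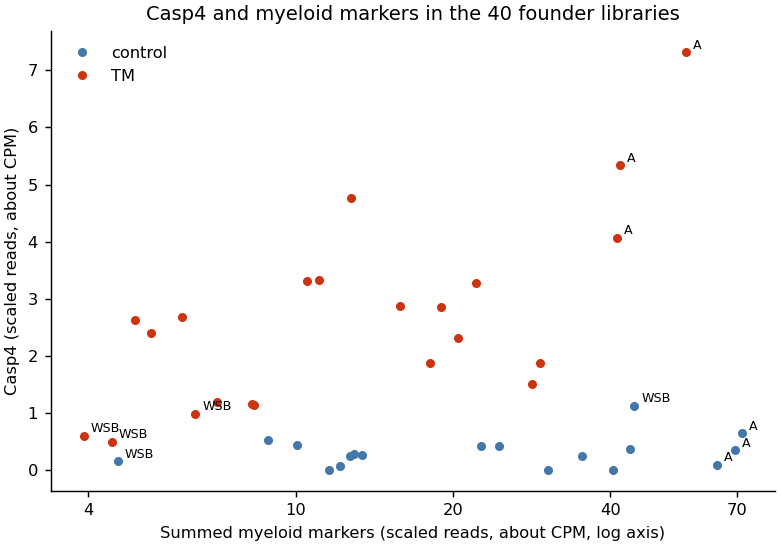
Casp4 against the summed level of 12 myeloid markers (log axis) in the 40 founder libraries, both in scaled reads (about CPM); each point is a library (blue, control; red, TM) and libraries of A and WSB are named. The A control libraries have the most myeloid signal (64.0 to 71.5) with little Casp4, and 1 WSB control library lies at 44.4, far from the other WSB libraries.

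Casp4 was higher under TM in each of the 5 crosses, xWSB included. In x129 the control libraries read 0.00, 0.10 and 0.09 units and the TM libraries 1.18, 0.62 and 1.16. In xCAST the values were 0.35 and 0.40 units in control and 2.97, 3.68 and 2.79 under TM. In xNOD they were 0.18, 0.04 and 0.16 units in control and 1.53 and 0.67 under TM. The x129, xNOD and xNZO cells had similar low levels in control and overlapped one another under TM. In xNZO the values were 0.11, 0.00 and 0.14 units in control and 1.08, 1.22 and 0.68 under TM. The xNOD and xNZO control libraries with high myeloid markers held 0.16 and 0.14 units of Casp4, within or close to the range of the other control libraries of those crosses.

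The xWSB cells stood apart from the other crosses in both conditions. Their control libraries read 1.35, 2.06 and 0.88 units of Casp4 (13, 30 and 7 reads), above each of the 11 control libraries of the other crosses, and their TM libraries 6.82, 4.30 and 4.13 units. Such a separation from all other control libraries of the crosses was seen for 5.73% of the 12803 genes, and from all other TM libraries for 6.9%. On the values as deposited, the control mean of 1.43 ± 0.60 units (SD, n = 3) was 10 times the mean of 0.143 over the control libraries of the other crosses, and the TM level was 3.18 times theirs. On log2(value + 0.1) the differences from the mean of the other 4 crosses were 2.66 ± 0.33 (SE) in control and 1.83 ± 0.33 under TM. Reads summed over libraries gave a TM to control ratio of 3.27 in xWSB, with a counting interval of 2.40 to 4.53, the lowest of the crosses, and of 16 in x129, with an interval of 5.78 to 61.6, the highest. Summed epithelial markers were also different in this cross, with 3.39 to 9.13 units in its 6 libraries against 26.3 to 63.2 in the libraries of the other crosses, while myeloid markers, at 7.40 to 10.1 units in its control libraries, were within the range of the others. Their part in the Casp4 level was not tested.

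On the log2 scale the change was 2.74 ± 0.45 (SE) in x129, 2.77 ± 0.29 in xCAST, 2.36 ± 0.56 in xNOD, 2.65 ± 0.55 in xNZO and 1.80 ± 0.36 in xWSB. Every TM library was above every control library in 5 of 5 crosses, which 4.55% of genes showed. Casp4 was called induced in 2 of 5 crosses, x129 and xCAST, where 4.88% and 2.52% of genes were called; the share was 3.69% in xNOD, 1.44% in xNZO and 0.185% in xWSB. In xWSB, where same-numbered libraries deviated together, a fit with the replicate number as a block left the Casp4 change at 1.80 ± 0.32 and uncalled, and genes called induced went from 23 to 10. The count in the crosses depended on single libraries of x129: it was 1 without x129 TM replicate 1, without x129 TM replicate 3 or without x129 control replicate 1, and 3 without xNZO control replicate 3, or with all the libraries that stood apart left out. A fit over all 28 libraries, with a shared spread, called Casp4 in 5 of 5. The xWSB change was 0.83 ± 0.47 smaller than the mean of the other 4 on the log2 scale, an interval of 2 SE either side running from -1.78 to 0.11. With a pseudocount of 1 in place of 0.1 this difference was 0.27 ± 0.22 and had the opposite sign, and the control means of the other crosses, 0.064 to 0.37 units, lie well below that pseudocount. With each of the 28 libraries left out in turn the difference stayed between -1.12 and -0.54, and the edgeR changes on recovered reads were 1.79 in xWSB and 3.10 to 3.84 in the other crosses. A smaller change in xWSB was thus seen in each of these fits except the one with the larger pseudocount.

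WSB and its cross with B6 thus differed in where they lay among their own set. WSB had the lowest Casp4 under TM of 8 founders, while xWSB had the highest of 5 crosses in both conditions. The B6 parent was sixth of 8 founders in both conditions, at 0.18 ± 0.26 units in control (SD, n = 2) and 1.70 ± 0.27 under TM. With the libraries that stood apart left out B6 was 5th in control. Its control libraries overlapped those of its neighbours in the order. Since the sets were scaled apart, the level in xWSB was not compared with that in either parent.

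Casp12 was present at about 2 to 6 units in control cells of every founder, and its estimated change with TM was below 1 on the log2 scale in each of them. In CAST, the strain with the highest level, it read 6.21 and 4.78 units in control and 7.13 and 6.20 under TM. In B6 it read 1.98 and 2.03 units in control and 3.02 and 3.87 under TM. In 129 the values were 2.64 and 1.97 units in control and 3.86, 4.40 and 4.52 under TM. In the last 2 of these strains, but not in CAST, TM and control libraries did not overlap.

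In PWK Casp12 read 1.95, 2.56 and 2.59 units in control and 4.07, 2.92 and 3.24 under TM. In WSB it read 2.11 and 3.38 units in control and 5.73, 5.92 and 4.27 under TM. The 2.11 units were read in WSB control replicate 2, the library with high myeloid markers. In A, control libraries read 2.96, 2.10 and 2.83 units and TM libraries 2.98, 4.70 and 2.90; the 4.70 units were read in A TM replicate 2, which stood apart. In NZO they read 3.76 and 3.36 units and 5.56, 3.88 and 3.63. In NOD, control libraries read 5.16 and 2.14 units and TM libraries 4.03, 3.71 and 2.86, so that the control libraries enclosed the TM libraries.

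**Figure D3:**
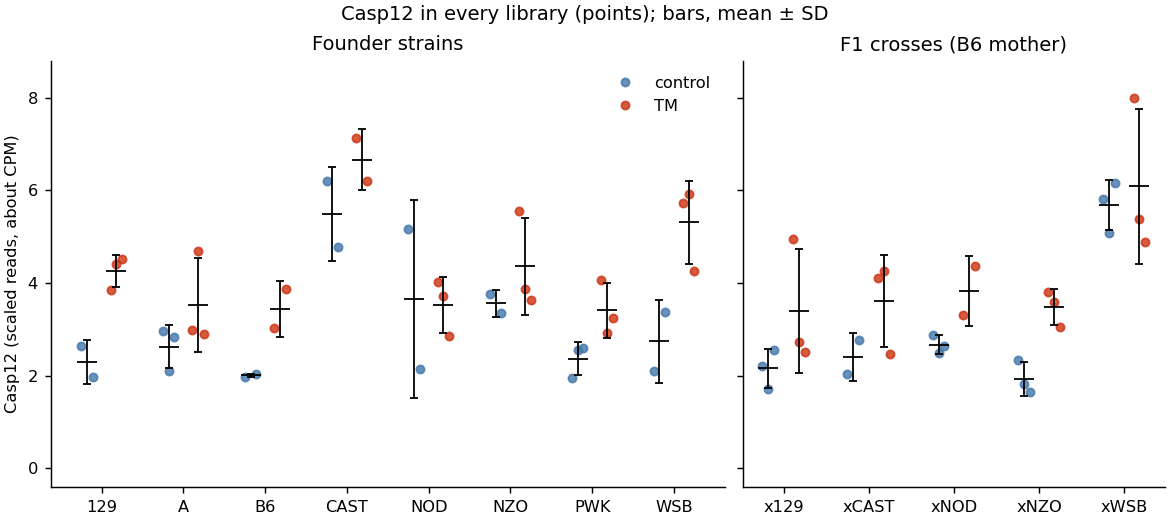
Casp12 in every library of the 8 founder strains (left) and 5 F1 crosses (right), in scaled reads (about CPM), with points for libraries (blue, control; red, TM) and black bars for the mean ± SD. Control values of the founders run from 1.95 to 6.21, and the xWSB control values of 5.09 to 6.15 lie above all other control values of the crosses.

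The Casp12 change on the log2 scale was 0.87 ± 0.25 (SE) in 129, 0.39 ± 0.30 in A, 0.74 ± 0.25 in B6, 0.28 ± 0.20 in CAST, 0.07 ± 0.35 in NOD, 0.26 ± 0.25 in NZO, 0.51 ± 0.21 in PWK and 0.95 ± 0.31 in WSB. Every TM library was above every control library in 4 of 8 strains (129, B6, PWK and WSB), as for 20.5% of genes in at least that many. Casp12 was called in 0 of 8 strains by limma and in 0 of 8 by edgeR. The WSB change was 0.50 ± 0.31 larger than the mean of the other 7 strains, and 2 SE either side ran from -0.11 to 1.11. This too turned on the WSB controls: the difference was 0.18 without control replicate 2, 0.83 without control replicate 3 and 0.19 with the 5 libraries that stood apart left out. The estimate within WSB was 0.62 ± 0.35 without those 5 libraries, below those of 129 and B6. Without A TM replicate 2 the change in A was 0.17 ± 0.26. In NOD the sign of the change rested on the control libraries: it was -0.55 without control replicate 3 and 0.68 without control replicate 1.

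Founder levels of Casp12 formed a narrow order. In control cells CAST was highest at 5.50 ± 1.02 units (SD, n = 2) and B6 lowest at 2.00 ± 0.03 (n = 2), and each strain overlapped its neighbours. Under TM CAST was highest at 6.67 ± 0.66 units and did not overlap WSB, the second at 5.31 ± 0.90 (n = 3), while the other neighbours overlapped down to PWK at 3.41 ± 0.59 (n = 3). Without A TM replicate 2, A was the lowest under TM, at 2.94 ± 0.05 units (n = 2).

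In the crosses Casp12 read 2.20, 1.71 and 2.56 units in x129 control and 4.94, 2.73 and 2.52 under TM. In xCAST it read 2.03 and 2.76 units in control and 4.10, 4.27 and 2.46 under TM. In xNOD it read 2.88, 2.48 and 2.65 units in control and 3.30 and 4.36 under TM. Of these 3 crosses, TM and control separated in xNOD but not in the others. In xNZO it read 2.34, 1.82 and 1.64 units in control and 3.81, 3.58 and 3.06 under TM. In xWSB it read 5.81, 5.09 and 6.15 units in control and 7.99, 5.38 and 4.88 under TM. The xWSB control libraries thus held more Casp12 than any other control library of the crosses, as was the case for 5.73% of all 12803 genes. TM and control libraries of xWSB overlapped.

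The changes were 0.58 ± 0.27 (SE, log2) in x129, 0.55 ± 0.29 in xCAST, 0.49 ± 0.21 in xNOD, 0.83 ± 0.22 in xNZO and 0.07 ± 0.25 in xWSB. TM libraries were above all control libraries in 2 of 5 crosses, xNOD and xNZO, as for 24% of genes in at least that many. Casp12 was called in 0 of 5 crosses by limma and 0 of 5 by edgeR. On log2(value + 0.1) the xWSB level was above the mean of the other 4 crosses by 1.29 ± 0.20 in control and 0.75 ± 0.20 under TM, and the change was 0.55 ± 0.29 smaller, with 2 SE either side running from -1.12 to 0.03.

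**Figure D4:**
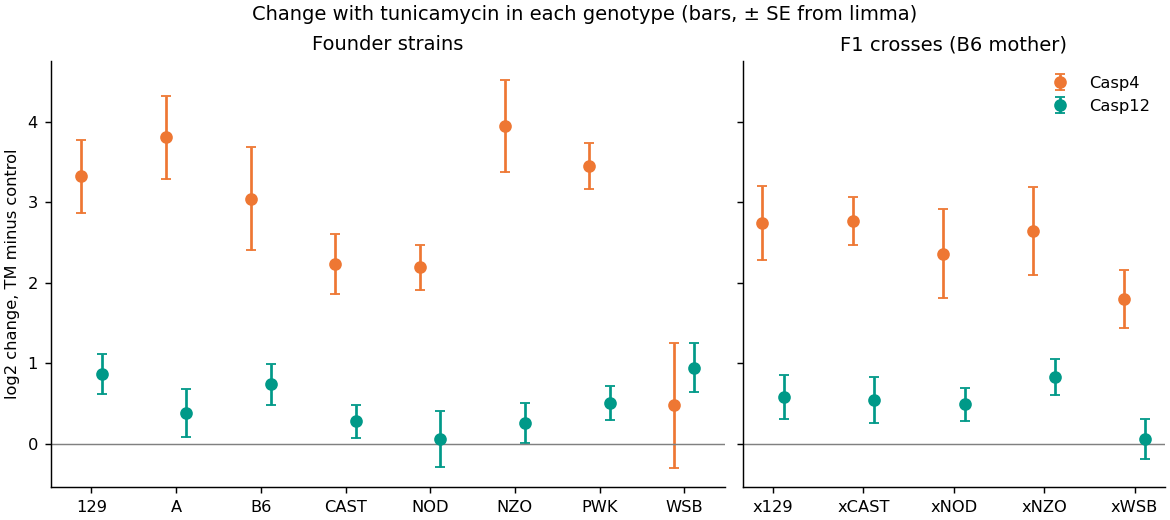
Change in Casp4 (orange) and Casp12 (green) with TM in each genotype, as the log2 change on values plus 0.1; points are limma estimates and bars ± SE. Casp4 changed by 1.80 to 3.94 outside WSB, where the estimate was 0.48 ± 0.78, and Casp12 by 0.07 to 0.95.

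Per length, Casp4 was below Casp12 in every control library. Dividing by annotated exon length (3710 bases for Casp4 and 3840 for Casp12), Casp4 in control cells was between 0.0129 times the Casp12 level in 129 and 0.261 times in xWSB. Under TM it exceeded Casp12 in 3 of 3 A libraries (1.50 ± 0.44 against 0.92 ± 0.27 units per kb, SD) and in 2 of 3 PWK libraries, where the mean ratio was 1.15. It stayed below in the means of all other genotypes, with ratios from 0.135 in WSB to 0.903 in xCAST. Read sharing between the genes was looked for with 100-base windows of the longest transcript of Casp4, Casp12 and Casp1. None matched a transcript of either other gene with 3 mismatches or fewer, and the closest had 22. Exons found only in shorter transcripts of the gene that gave the windows were not searched.

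The xWSB control libraries lay above all others at both caspases, and at none of the few other genes listed around them. Within 1.5 Mb, 5 other genes were listed in the crosses, and this window was chosen after the caspase values were seen. On the values as deposited, the xWSB control mean was 2.49 times the mean of the other cross libraries for Casp12, beside the larger ratio for Casp4 given above. The ratio was 0.883 for Gucy1a2, 1.01 for Aasdhppt, 0.674 for Kbtbd3, 1.17 for Msantd4 and 1.30 for Pdgfd, the next listed gene beyond Casp12. In none of these 5 did the xWSB control libraries lie above all others, as they did for 5.73% of all 12803 genes. The nearest of the 5 were Msantd4, ending at 4386870, and Pdgfd, starting at 6168584. Between them only the 2 caspases had values, and how far the raised level reached along the chromosome was not tested.

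Likeness between Casp4 and Casp12 differed between the founders and the crosses. Over the 16 founder groups their mean log2 levels had a Pearson r of 0.50, which placed Casp12 2040th of 11920 genes by likeness to Casp4, and over the 10 F1 groups r was 0.86. Over the 8 founder changes r was -0.31, and over the 5 F1 changes it was 0.86. The F1 values draw on xWSB, where both levels were high and both estimated changes were the smallest of the crosses, and all groups share the contrast of TM with control. The genes closest to Casp4 in level over the founder groups were Zfp869 (r = 0.93, and 0.61 in the F1 groups), Twistnb (0.93 and 0.65) and Paxbp1 (0.92 and 0.78). Closest in change were Agps (0.96, and 0.88 over the 5 crosses), Ell2 (0.95 and 0.94) and Podn (0.94 and -0.08). For Casp12 they were Akap17b (0.88 and 0.31), Maoa (0.87 and 0.72) and Cul4b (0.87 and -0.24) in level, and Vti1b (0.99 and -0.38), Hikeshi (0.98 and -0.13) and Eloc (0.98 and 0.38) in change. These are the top of 11920 ranked genes over few points and are descriptions.

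Most genes around the caspases in their pathways were called in no founder strain (49 of 62 tested) and in no cross (53 of 58). Of 71 genes in 7 lists, 62 were tested in at least 1 founder strain, and 10 were induced and 3 lowered in at least 1 strain, against 8.15% induced and 7.85% lowered among all 13193 genes. In the crosses 58 were tested, 5 were induced and 0 lowered in at least 1 cross, against 7.05% and 5.47% of 12757 genes; edgeR also lowered 0, and limma's unadjusted p was under 0.05 for 18 with a lower level. In the founders the induced share of these genes was thus above that of all genes, and the lowered share below it. The lists were chosen with earlier results known, so no evidence is drawn from these shares. The median over the 62 genes of the mean change was 0.06 on the log2 scale in the founders, and -0.04 over all genes.

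Among regulators of caspase-11 transcription, 3 of 15 were induced and 1 lowered in the founders. Ddit3, which encodes the ER stress factor CHOP, rose in 8 of 8 strains and 5 of 5 crosses, with a mean log2 change of 3.90 and 3.76 and a largest adjusted p in the founders of 0.00584 by limma. In WSB, where Casp4 did not separate, Ddit3 went from 46.2 ± 3.1 (SD, n = 2) to 892 ± 135 units (n = 3), the highest mean of any founder under TM. The Ddit3 change in xWSB, 3.18, was the smallest of the crosses. Ticam1, the adaptor TRIF that links Toll-like receptors to interferon, rose in 5 of 8 strains, WSB among them (log2 change 0.88 ± 0.18, adjusted p = 0.00908 by limma), and in 1 of 5 crosses. Nfkb1, which encodes the p105 precursor of NF-κB p50, rose in 3 of 8 strains and 2 of 5 crosses. Stat2, an interferon signal transducer, was called lowered in 1 of 8, PWK (-0.61 ± 0.14, limma adjusted p = 0.00471). Its estimates were below 0 in all 8 strains (-1.01 to -0.04) and all 5 crosses (-1.26 to -0.30). Myd88, another Toll-like receptor adaptor, had the smallest mean change, 0.02. In WSB the estimates of other genes of this list went both ways. Tlr4 (-2.17), Stat2 (-1.01) and Irf1 (-0.21) were below the means of the other 7 strains (-0.44, -0.54 and 0.24). Rela (0.44) and Irf3 (0.43) were above theirs (0.28 and 0.05). No such difference passed, and a link to Casp4 was not tested.

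Of the inflammasome sensors and adaptor, 5 of 11 were listed and tested in the founders and 1 was induced. Nlrp3, the sensor that drives caspase-1, was called induced in 4 of the 7 strains in which it was tested. These were B6, CAST, NOD and PWK, where Casp4 was also called, with changes from 2.49 to 2.90 on the log2 scale. Over all 7 strains the Nlrp3 change ran from 1.16 to 3.56, so the largest was in a strain without a call. The tested strains without a call were 129, A and NZO. In these 0.315%, 0.346% and 0.32% of all genes were called induced, against 1.45% to 6.36% in the 4 strains with a call. Nlrp3 did not pass the filter in WSB. Nek7, the Nlrp3 partner, had a mean change of 0.18 and was called nowhere. Pyroptosis effectors and substrates had 2 of 9 members induced: Il1a, encoding interleukin-1α, in 3 of 7 strains, and Il1b, encoding interleukin-1β, in 2 of 4. Gsdmd, the caspase-11 substrate gasdermin D, had a mean change of 0.16 over 8 strains and passed in none of them by limma, and the channel gene Panx1 had the smallest mean change, -0.04. In level, xWSB control cells held 44.5 ± 7.1 units of Il1a (SD, n = 3), against 0.0289 to 0.487 in the means of the other crosses. Among pathway genes only Il1a is compared in level between crosses here, a choice outside the naming rule. For scale, xWSB control libraries lay above every other control library of the crosses for 5.73% of 12803 genes. A link between Il1a and the caspases was not tested.

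In the remaining lists few members passed. Il1r1, the interleukin-1 receptor, was the only 1 of the 6 IL-1 family receptors and antagonists induced in a founder strain, and its co-receptor Il1rap had a mean change of -0.12. Hmgb1 was the only 1 of 8 tested genes of lipopolysaccharide delivery and guanylate-binding proteins to rise in a strain, and Irgm2 had the smallest mean change, -0.07, with strains running from -0.43 to 0.52. Of the 11 apoptotic caspases and partners 0 rose and 2 were lowered: Apaf1, the apoptosome scaffold, in 2 of 8 strains (-0.84 ± 0.10 in PWK, adjusted p = 2.89e-05, and -0.94 ± 0.19 in WSB, adjusted p = 0.00956, both limma), and Cflar, the caspase-8 inhibitor, in 1. Of the 8 caspase-12 partners at the ER, 2 rose, each in 1 strain: Traf2, an IRE1-binding adaptor (mean change 0.50), and Ern1, which encodes IRE1α (0.40). Bcap31, an ER membrane protein cleaved by caspases, had a mean change of 0.04.

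**Figure D5:**
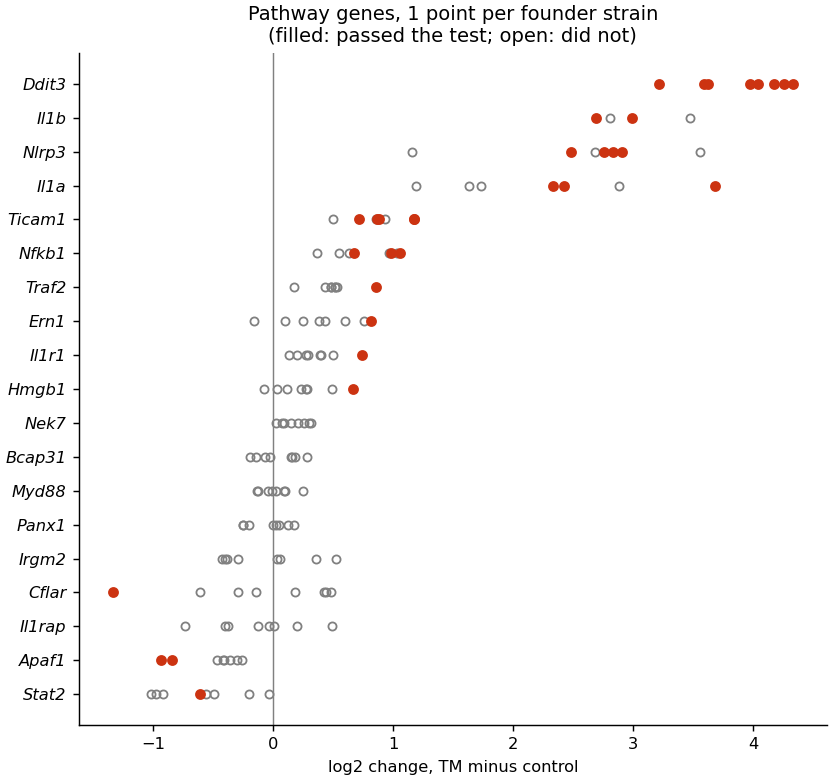
Log2 change with TM of the named pathway genes, 1 point per founder strain in which the gene was tested. Filled red points passed the test and open points did not; Ddit3 passed in all 8 strains, and most other genes passed in none or in few.

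The change in none of the pathway genes was shown to differ between WSB and the other strains or between xWSB and the other crosses. Of 62 genes tested for WSB minus the mean of the other 7 strains, 0 passed by limma, 9 had an unadjusted p under 0.05, and the smallest adjusted p was 0.163. Of 58 tested for xWSB minus the other 4 crosses, 0 passed, 5 had an unadjusted p under 0.05, and the smallest adjusted p was 0.469. Few genes passed these tests at all: 0.00758% for WSB and 0.0469% for xWSB.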

How the data were processed

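Messenger RNA was sequenced from 68 libraries of fibroblasts of 8 founder strains and 5 F1 crosses. The submitters' processing notes name Trimmomatic, TopHat 1.4.1, edgeR and the build GRCm38 (mm10). Per the study's methods, reads were aligned with TopHat to a reference of each strain, and F1 reads, after adapter trimming, to the genomes of both parents. Which alignment made the deposited F1 values is not given in the sources used here, and its effect on levels compared between genotypes was not tested. Values were scaled by edgeR's TMM method over each set, and libraries that did not cluster with their condition were removed by the authors. The deposited signal values, named FPKM, proved not to be divided by gene length: each value is a whole multiple of what 1 read is worth, within 0.1 of a step. Reads were recovered in 66 libraries (100% of values whole). In 2, PWK TM replicate 2 and WSB TM replicate 1, they were not taken as recovered, although 100% of their values were also whole. These 2 libraries are left out of the read counts. FPKM had been assumed when the tests were planned, and the log-scale test was kept. The counter used was not given in the sources used here. The F1 tables carry 3 rows that name no gene (15.5% to 24.2% of the signal), which were left out. No columns of other samples were present.

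Changes were tested with limma on log2(value + 0.1) within each genotype, for genes at 0.5 or more in at least 2 of its libraries, with Benjamini-Hochberg adjustment over all genes. A gene was called at an adjusted p below 0.01 and at least 1.5 fold. Differences between genotypes came from 1 fit per set. The alternative on recovered reads was edgeR's quasi-likelihood test. Intervals of read ratios are exact conditional binomial ones at 95% and cover counting error only. Scripts were tested on simulated data. Gene names came from GENCODE vM21 (13197 of 13378 genes matched).

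The members, lists and markers were chosen with earlier results of these data known. Pathway genes named are, per list, up to 4 called in most founder strains and the 1 tested in all 8 with the smallest mean change, except 1 gene that is not reported here; genes like a caspase are the 3 with the highest Pearson r. Likeness of libraries was the correlation of log2 deviations from the mean of the treatment, over genes with a mean above 5. The pairing of same-numbered control and TM libraries was checked: 9 of 29 pairs had a correlation of deviations above 0.1 (range -0.57 to 0.37). In 1 genotype, xWSB, each of 3 pairs was above 0.1, and in the others the numbers were not treated as pairs.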

Additional observations from a re-analysis of the deposited data

How the results depend on the processing

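Low counts limit Casp4 most: control groups of founders held 1 to 18 reads, and its fitted changes depend on the pseudocount. Of 167 alternative values of the Casp4 change in a genotype, 166 kept their sign, the exception being WSB without control replicate 3, and of 183 for Casp12 178 kept it, the 5 exceptions lying in NOD and xWSB. Leaving out 1 library left a group with a lone library in 20 of 68 fits, where it was assumed to vary like the others.

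Casp4 was called in 1 founder strain and 1 cross with a mean value of at least 2, a filter that leaves Casp4 out of most fits, and in 5 crosses in 1 fit over all libraries of the set, which is a shared spread over more libraries. Pathway genes lowered in the crosses numbered 4, and those induced 8, in that fit, and 5 were lowered in the founders; without the variance trend 3 were induced in the crosses. With a pseudocount of 1 the Casp4 difference was -1.42 for WSB and 0.27 for xWSB. With the 5 libraries that stand apart left out, a choice made after seeing the data, 6 pathway genes were lowered in the founders, the Casp4 difference for WSB was -1.48 and that for Casp12 0.19. The cause was not tested.

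With each library left out in turn, the number of crosses with Casp4 called ranged from 1 to 3, of pathway genes induced in a cross from 3 to 7 (3 without xCAST TM replicate 2), and of those lowered in a cross from 0 to 8 (8 without xNOD TM replicate 2, 4 without xCAST TM replicate 3). Those lowered in a founder ranged from 2 to 6 (6 without NZO TM replicate 3). The WSB difference ranged from -3.81 to -1.51 for Casp4 and from 0.18 to 0.83 for Casp12, both ends set by the 2 WSB control libraries.

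With the replicate number as a block, which could not be fitted in B6 and CAST, Casp4 was called in 4 founder strains and 3 crosses. The strains were 129, NOD, NZO and PWK, in place of B6, CAST, NOD and PWK without the block. The crosses were x129, xCAST and xNOD. Casp12 was called in 0 strains and 0 crosses, and pathway genes lowered in a cross numbered 4. In the genotypes with a block, genes called induced went from 40 to 807 in 129, from 361 to 149 in WSB and from 23 to 10 in xWSB. In xWSB the correlations of same-numbered pairs were 0.27, 0.18 and 0.13, and the block changed neither the Casp4 nor the Casp12 call there. In each other genotype at least 1 pair was not above 0.1, or there were fewer than 3 pairs.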
